A study of Arabidopsis thaliana with 6 samples.

Results

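RALF-like genes (symbol RALFL and a number) encode small secreted signalling peptides of plants. All probe sets that the platform annotation pairs with a single RALFL gene were taken, which gave 11 probe sets for 11 genes among 22746 probe sets on the Affymetrix ATH1 array. The gene table lists 32 RALFL genes, and the other 21 had no probe set named here. The title of the series names a developmental role of CDPK6, a kinase that calcium activates, as its question. Total RNA of whole Arabidopsis thaliana seedlings of the Col-0 ecotype was hybridised to 6 arrays. Growth was at 22 °C in a 16 h light period, and about 40 plants were pooled per array. Line 4 (cdpk6-yfp 4, with a cdpk6-yfp transgene) has 2 arrays, line 1 (cdpk6-yfp-1, with the same transgene) has 1, and the control line (aeq+, with an aequorin transgene) has 2. On 1 further array the strain label gives line 1, while the source name and the Kan-3 in the title follow the control arrays. This array with conflicting labels was placed in no group. The labels give no seedling age and no promoter for either transgene, and do not say whether the cdpk6-yfp lines also carry aequorin.

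RALF peptides are rich in cysteine and take their name from the rapid alkalinisation of the medium that they cause in plant cells. Many are cut from a precursor by the S1P protease and are then perceived at the cell surface by receptor kinases related to FERONIA together with GPI-anchored coreceptors. Members act in growth of the cell wall, in root and root hair growth, in pollen tubes and in immune signalling. RALF1 and RALF23, well studied members of the family, do not carry the RALFL symbol and no probe set used here was named for them.

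Values are the deposited intensities on a linear scale, which the authors had scaled to a common mean on each array. A filter left out the dimmest 40% of all probe sets by mean log2 intensity, at about 29.6 intensity units. It kept 5 of the 11 RALFL probe sets, those of RALFL22, RALFL24, RALFL32, RALFL33 and RALFL34, and the other 6 lay below it. Median intensities ran from 44.2 to 46.4 over the 6 arrays, and replicates correlated across 13647 probe sets at r = 0.99 in line 4 and 0.983 in the control. Scanner background averaged 142.62 on control replicate 2 and from 89.78 to 95.64 on the other arrays. As markers of a whole seedling, the root gene PYK10 read 2178.5 to 2929.8 and the leaf gene RCA 2585.8 to 3588, while the pollen gene MGH3 read 2.1 to 3.2. No probe set used here was named for CDPK6, so its transcript was not analysed here.

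Line 4 was set against the control first, to see which RALFL transcripts differ where cdpk6-yfp is present. RALFL32 and RALFL34 fell and RALFL33 rose, while RALFL22 and RALFL24 did not pass the test. RALFL32 read 68.7 and 86.7 on the line 4 arrays, against 143.7 and 137.2 on the control arrays. Both line 4 arrays lay well below both control arrays, at 55% of the control on average. On the log2 scale RALFL32 fell by 0.86 ± 0.13 (limma SE, 2 against 2 arrays, limma adjusted p = 0.00268). An SE of limma draws on a variance trend over all probe sets kept, not on the arrays of 1 gene alone.

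RALFL34, whose peptide acts in lateral root formation and is a ligand of the receptor kinase THESEUS1, read 299.9 and 324.8 in line 4 and 449.9 and 398.2 in the control. The groups did not overlap, and line 4 stood at 73.7% of the control (log2 -0.44 ± 0.09, limma SE, 2 against 2 arrays, adjusted p = 0.01 in limma). RALFL33, whose peptide is known to dampen immune signalling through FERONIA, read 484.4 and 541.2 in line 4, above the 386.4 and 422.7 of the control. This was a 1.27-fold rise (log2 0.34 ± 0.09, limma SE, 2 against 2 arrays, adjusted p = 0.0284 in limma). In RNA of whole seedlings, fewer cells that express a gene and less RNA per cell cannot be told apart.

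RALFL22, linked to salt responses and to the root hair wall, read 246.8 and 263.7 in line 4 and 240.4 and 259.7 in the control. These ranges overlapped almost fully, and the difference of 0.03 ± 0.08 (SE, limma adjusted p = 0.838) had a 95% interval from -0.16 to 0.22. RALFL24 read 90.4 and 105.3 in line 4 and 119.1 and 101.9 in the control, which also overlapped (-0.18 ± 0.12 SE, limma adjusted p = 0.373, 95% interval -0.46 to 0.10). These intervals leave room for small changes of either gene.

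**Figure D1:**
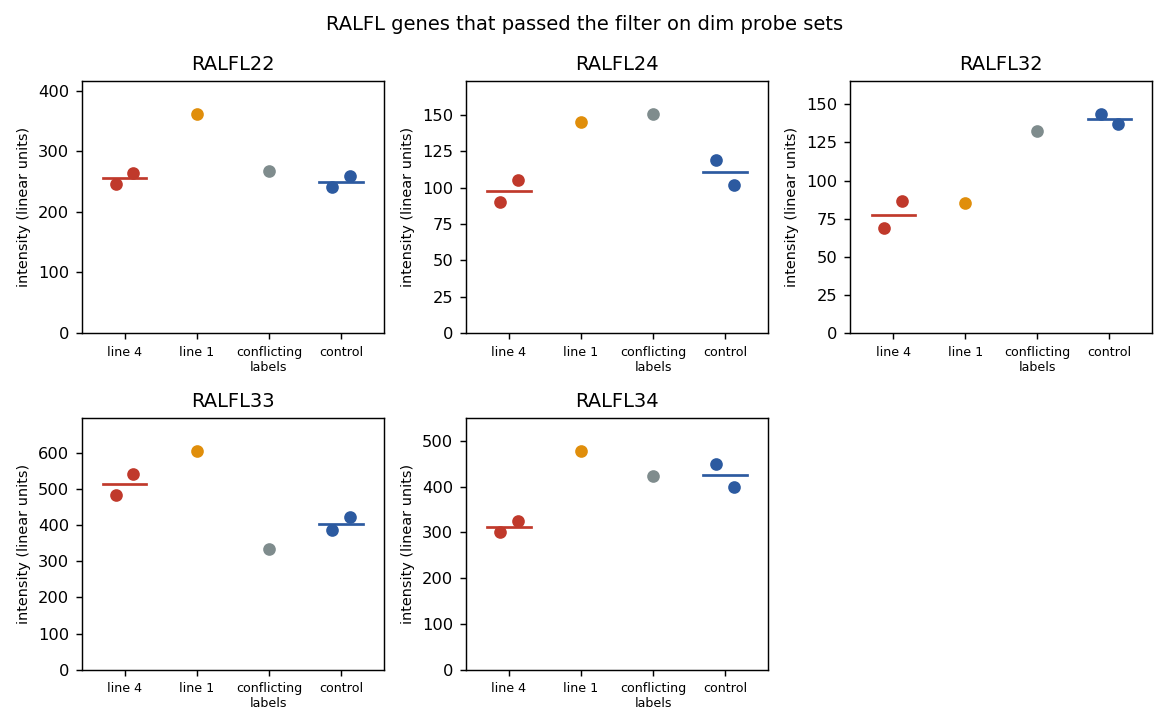
Deposited intensity (linear units, axes from 0) of the 5 RALFL genes that passed the filter, with 1 point per array for line 4 (2 arrays), line 1 (1), the array with conflicting labels (1) and the control (2); horizontal lines are means of 2 arrays. RALFL32 lies at 68.7 to 86.7 on the line 4 and line 1 arrays and at 137.2 and 143.7 on the control arrays, with the conflicting array at 132.7.

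In all, 3 of the 5 measured RALFL genes (60%) passed in line 4, 1 higher and 2 lower, where 15.5% of all 13647 probe sets passed, 8.1% higher and 7.37% lower. Their median log2 difference was -0.18, against -0.031 over all probe sets, and their median absolute difference was 0.34, against 0.19. With 5 genes these are descriptions only. Line 4 and control arrays did not overlap at 3 of the 5 genes, 1 above and 2 below, close to the share over all probe sets of 60.1% (26.8% above and 33.3% below). All 3 calls were lost when the array with conflicting labels was added to the control (adjusted p = 0.0987 for RALFL32, 0.298 for RALFL33 and 0.235 for RALFL34) or to line 1 (0.162, 0.587 and 0.182), with directions kept. Over all probe sets 88 and 183 then passed, against 2111. RALFL33 also lost its call with no filter (0.0862), with no variance trend (0.123), without control replicate 1 (0.0872) and without line 4 replicate 2 (0.225), and RALFL34 with no variance trend (0.0761) and without line 4 replicate 1 (0.0708).

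Line 1 is 1 array, so no replicate backs its differences and only their sizes are given here. RALFL33 read 606.5 in line 1, the highest of the 6 arrays, 1.5-fold over the control mean (log2 difference 0.59). RALFL22 read 361.7 in line 1, against at most 267.3 on any other array, a difference from the control of 0.53. RALFL24 read 145.2 (0.40) and RALFL34 478.4 (0.18), both above the 2 control arrays. RALFL32 read 85.5, between the line 4 arrays and at 60.9% of the control (-0.72). All 5 measured genes thus lay outside the control arrays in line 1, 4 above and 1 below, where 79.3% of all probe sets lay outside, 43.2% above and 36.1% below. Their median difference was 0.40, against 0.033 over all probe sets.

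**Figure D2:**
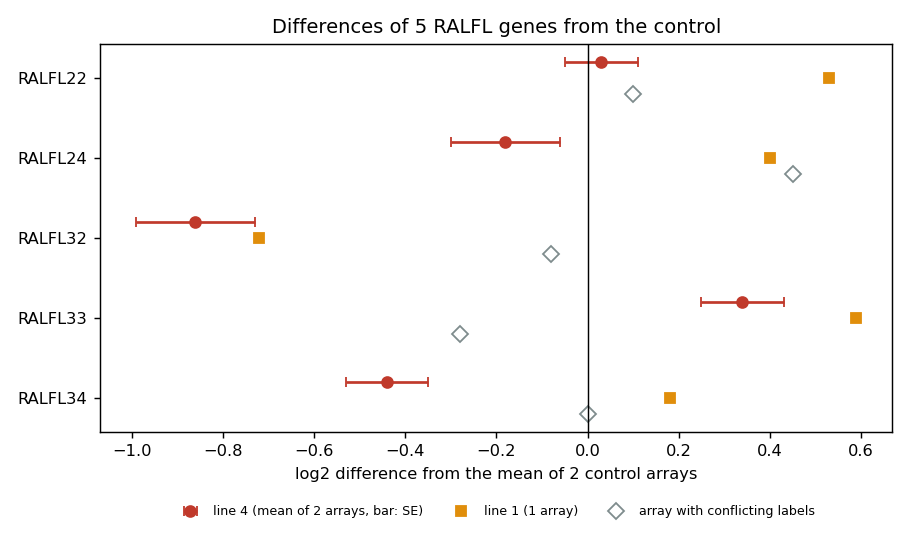
Log2 difference of each measured RALFL gene from the mean of 2 control arrays, for line 4 (circles, mean of 2 arrays, bars are SE), line 1 (squares, 1 array) and the array with conflicting labels (diamonds, 1 array). RALFL32 is lower in line 4 (-0.86) and line 1 (-0.72), RALFL33 higher in both (0.34 and 0.59), and RALFL34 lies below 0 in line 4 (-0.44) and above it in line 1 (0.18).

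Both lines share the control arrays, so their own values are set side by side. RALFL34 lay below both control arrays on each line 4 array and above them in line 1, as 9.2% of all probe sets did. Line 4 minus line 1 came to -0.62 for RALFL34, -0.57 for RALFL24 and -0.50 for RALFL22 on the log2 scale, and to -0.24 for RALFL33 and -0.15 for RALFL32. With 1 array in line 1, whether the lines differ was not tested.

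As the labels give both lines the same transgene, their 3 arrays were also tested together against the control. With limma, 0 of the 5 genes passed, and 0% of all 13647 probe sets did. At an unadjusted p under 0.05 there were 2 of the 5 genes, RALFL32 and RALFL33, and 13% of all probe sets. RALFL32 stood at -0.81 ± 0.14 (SE, n = 3 against 2, limma adjusted p = 0.199) and RALFL33 at 0.42 ± 0.12 (limma adjusted p = 0.292). At these 2 genes all 3 cdpk6-yfp arrays lay on 1 side of both control arrays, as they did at 34.9% of all probe sets. RALFL22 (0.20), RALFL24 (0.02) and RALFL34 (-0.23) had adjusted p from 0.655 to 0.981. With the lines as separate groups and their mean set against the control, RALFL22 (0.28), RALFL32 (-0.79) and RALFL33 (0.46) passed (limma adjusted p = 0.0394, 0.00305 and 0.00545), as did 15.4% of all probe sets. That mean gives the single line 1 array as much weight as both line 4 arrays together, and no replicate backs it. RALFL22 stood at 0.03 in line 4 and at 0.53 in line 1, so its pass rests on the line 1 array. Without the line 1 array, 3 genes passed, the same 3 as in line 4 alone, beside 15.6% of all probe sets.

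**Figure D3:**
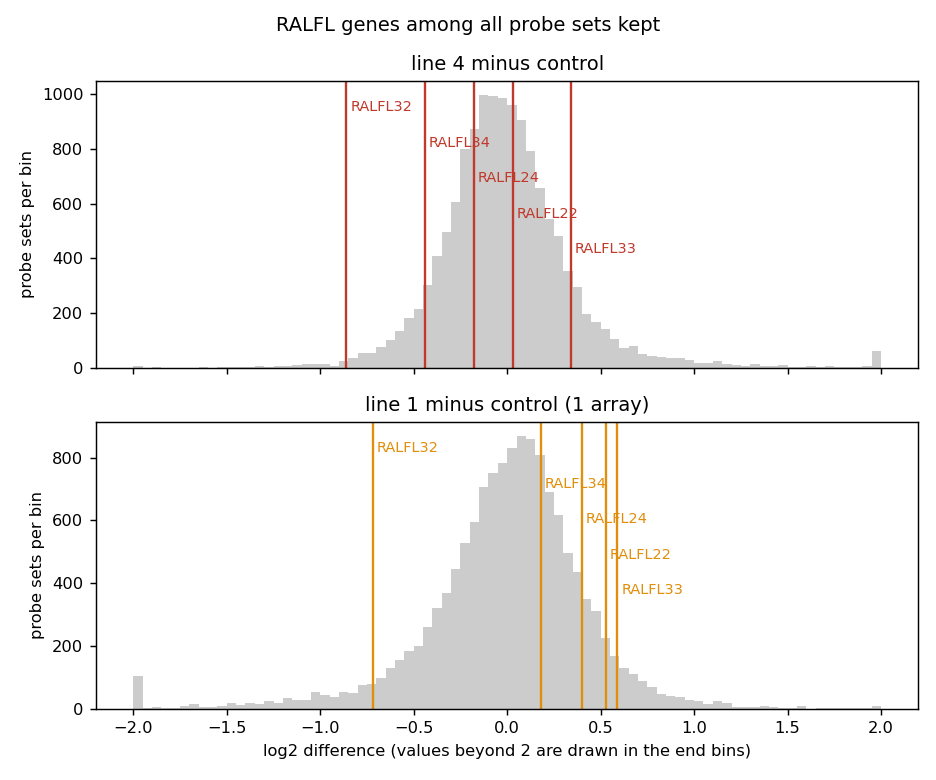
Distribution of log2 differences from the control over all 13647 probe sets kept (grey, bins of the log2 difference, counts from 0) for line 4 (top) and for the single line 1 array (bottom), with the 5 measured RALFL genes as vertical lines. RALFL32 lies on the lower side in both panels (-0.86 and -0.72), and the other 4 genes are spread from -0.44 to 0.34 in line 4 and from 0.18 to 0.59 in line 1.

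On the array with conflicting labels RALFL32 read 132.7, RALFL34 422.2 and RALFL22 267.3, which differed from the control mean by -0.08, 0.00 and 0.10 on the log2 scale. RALFL33 read 334.0, below every other array (-0.28), and RALFL24 read 150.7, above every other array (0.45). Of the 5 measured genes 2 lay above both control arrays and 2 below, where 46% and 36.6% of all probe sets did. The order of the arrays therefore varied by gene. For RALFL32 the line 4 and line 1 arrays ran lowest, and the conflicting array lay next to the control. For RALFL33 the order was the conflicting array, the control, line 4 and line 1, and no value of 1 group entered the range of another. For RALFL34 line 4 ran lowest and line 1 highest, with the conflicting array inside the control range. For RALFL22 the line 4, control and conflicting arrays lay within 240.4 to 267.3 and did not separate, and line 1 lay above them. For RALFL24 line 4 and the control overlapped, and line 1 and the conflicting array lay above both.

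Over all 6 arrays the log2 values of the measured genes had standard deviations of 0.21 (RALFL22), 0.27 (RALFL34), 0.29 (RALFL24), 0.32 (RALFL33) and 0.45 (RALFL32). After each gene was centred on its mean, RALFL24 and RALFL34 had the most similar profiles, with a root mean square difference of 0.16. RALFL32 and RALFL33 were furthest apart at 0.66. Among 7361 other kept probe sets of 1 gene, the profiles most like RALFL32 over the 6 arrays were those of AT2G35310 (0.093), AT1G24430 (0.099) and PRN (0.142), where the median was 0.45. AT2G35310 read 25.4 and 34.5 in line 4, 33.5 in line 1, 45.5 on the conflicting array and 48.5 and 53.1 in the control. The profiles most like RALFL33 were those of AT3G57360 (0.066), AT1G12990 (0.069) and AT3G15460 (0.070), where the median was 0.36. AT1G12990 read 130.9 and 143.5 in line 4, 172.4 in line 1, 84.7 on the conflicting array and 106.9 and 104.7 in the control. These likenesses are descriptions, over arrays that all genes share.

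The 6 RALFL genes below the filter were not tested. RALFL31 lay just under it, at 24.1 and 30.7 in line 4, 30.5 in line 1, 37.7 on the conflicting array and 41.2 and 22.4 in the control. The control arrays spanned the line 4 and line 1 values. In the gene table RALFL31 and RALFL32 lie on chromosome 4 with 12 genes between them. RALFL27 read 15.5 and 19.5 in line 4, 21.9 in line 1 and 30.3 and 26.3 in the control. The line 4 and line 1 arrays thus lay below both controls, while the conflicting array stood highest at 52.6. RALFL25 and RALFL26, which have 1 gene between them on chromosome 3, both ran lower in line 4 than in the control. RALFL25 read 3.8 and 6.2 in line 4, 10.1 in line 1 and 10.4 and 7.8 in the control, with 1.4 on the conflicting array. RALFL26 read 1.8 and 2.8 in line 4, 7.5 in line 1 and 11.3 and 5.5 in the control, with 8.7 on the conflicting array. These readings lie far under the filter, and replicates of RALFL26 differed by 1.04 on the log2 scale in the control. Of all probe sets kept, 33.3% lay below both control arrays on both line 4 arrays. The share among probe sets under the filter was not computed. RALFL18 ranged from 3.5 to 10.8 over the 6 arrays and RALFL28 from 0.3 to 3.2, with line 4 and control overlapping for both.

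**Figure D4:**
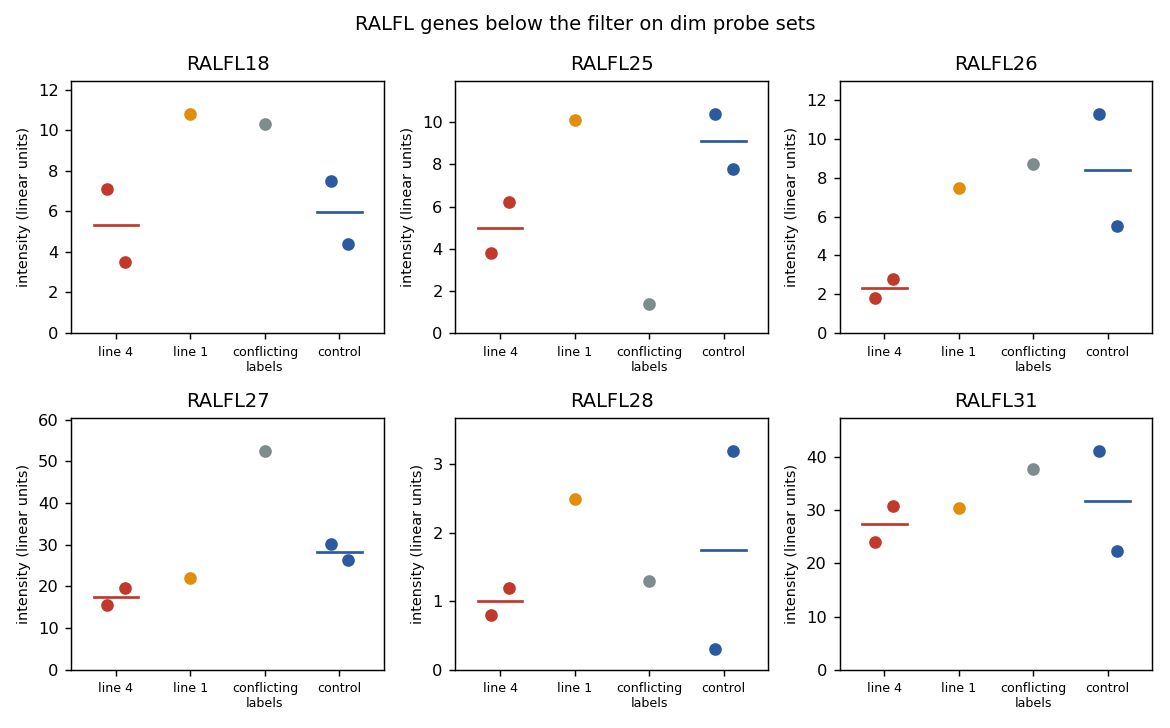
Deposited intensity (linear units, axes from 0, a different scale in each panel) of the 6 RALFL genes below the filter, with 1 point per array for line 4, line 1, the array with conflicting labels and the control; horizontal lines are means of 2 arrays. All values lie under 60 units, RALFL27 is highest on the conflicting array (52.6), and RALFL25 and RALFL26 are lower on both line 4 arrays than on both control arrays. The share of probe sets under the filter with that order was not computed.

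Genes of RALF peptide processing, perception and output, some of them cell wall genes, were read from a list of 45 loci. Of these 19 had a probe set named for them and 10 passed the filter. The list held the 10 as protease, receptor or cell wall genes, and no coreceptor or proton pump was among the 19. In line 4, 2 of the 10 passed, both higher (limma). Of all probe sets 15.5% passed in either direction, 8.1% higher and 7.37% lower. FER, which encodes the receptor kinase FERONIA, read 450.8 and 407.6 in line 4, 478.8 in line 1 and 404.5 and 410.8 in the control. Its line 4 value differed by 0.07 ± 0.08 on the log2 scale (SE, limma adjusted p = 0.578). THE1, which encodes THESEUS1, read 140.6 and 161.8 in line 4 and 151.2 and 156.5 in the control (-0.03, limma adjusted p = 0.873), and 237.7 in line 1 (0.63). S1P, for the protease that cuts RALF precursors, read 77.2 and 83.1 in line 4, below the 98.1 and 95.5 of the control, without passing (-0.27 ± 0.11, limma adjusted p = 0.141). It read 105.5 in line 1.

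The other 7 measured genes entered the list by locus and carry no symbol in the gene table, so only their list roles are given. The list held AT5G39020, AT5G39030 and AT2G39360 as receptors. It held AT3G22800, AT2G15880, AT3G24480 and AT4G18670 as cell wall genes. AT5G39020 rose in line 4, with 62.0 and 64.5 there, against 25.5 and 31.0 in the control (1.17 ± 0.19 SE, limma adjusted p = 0.00377), and read 26.3 in line 1. AT3G22800 also rose, with 43.2 and 42.3 in line 4 and 26.0 and 26.2 in the control (0.71 ± 0.20 SE, limma adjusted p = 0.0433), and read 24.1 in line 1. Its control and line 1 readings lay under the filter's 29.6 units. The control mean of AT5G39020 was 4.81 on the log2 scale, also under the filter at 4.89, as was its line 1 reading. Both genes thus passed the filter only through line 4, where they are high, which limits what their calls show. AT5G39020 no longer passed with the array with conflicting labels as control (0.0627). AT3G22800 lost its call with that array in either group (0.504 and 0.322), with no filter (0.107) and without either control replicate (0.061 and 0.0547). AT5G39030 (0.49), AT2G39360 (0.42), AT2G15880 (0.16), AT3G24480 (-0.01) and AT4G18670 (-0.16) did not pass in line 4 (limma adjusted p from 0.0621 to 0.964). The list's median log2 difference was 0.12 in line 4 and 0.17 in line 1. In line 1, 7 of the 10 lay above both control arrays and 1 below, beside 43.2% and 36.1% of all probe sets.

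**Figure D5:**
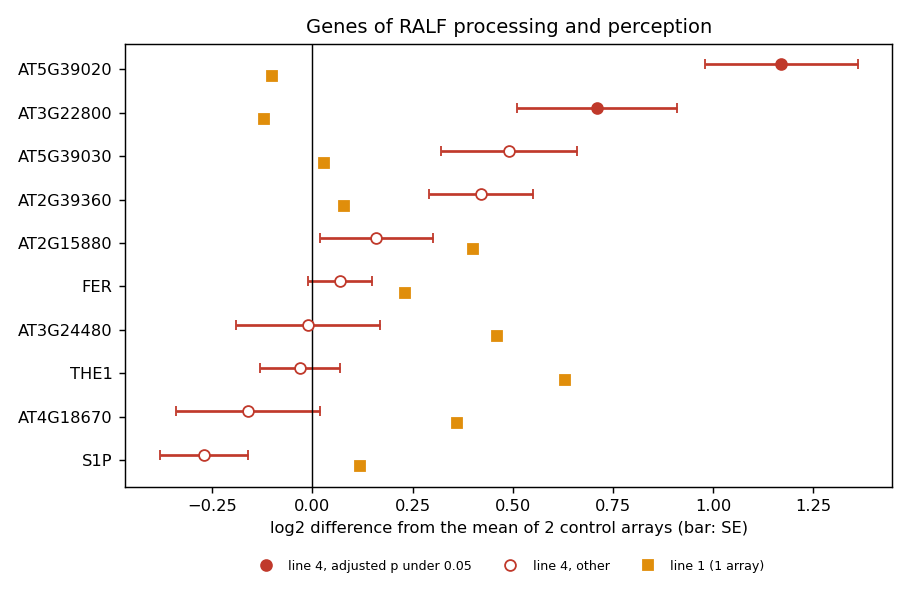
Log2 difference from the mean of 2 control arrays for the 10 measured genes of the RALF list, held there as protease, receptor or cell wall genes, for line 4 (circles, bars are SE, filled where the adjusted p is under 0.05) and line 1 (squares, 1 array). AT5G39020 and AT3G22800 are the 2 filled circles, at 1.17 and 0.71 in line 4 and at -0.10 and -0.12 in line 1, while FER and THE1 lie at 0.07 and -0.03 in line 4.

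Few organ markers were named on the array. The root gene PYK10 stood at -0.28 in line 4 and -0.11 in line 1, the leaf gene RCA at -0.21 and -0.34, and the root hair genes EXPA7 at -0.30 and -0.65 and EXPA18 at -0.20 and -0.04. In line 4 their adjusted p in limma lay from 0.104 to 0.505. The summed level of both root hair genes was 64.4 and 61.9 in line 4, 60.5 in line 1, 76.2 on the conflicting array and 77.4 and 72.7 in the control. The part of these shifts in the RALFL differences was not tested.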

How the data were processed

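The authors labelled total RNA with biotin for ATH1 arrays, per the labels' protocols, and deposited 1 intensity per probe set and array. How probes were summarised is not given in the sources consulted. The deposited intensities are linear by their values and were scaled to a 2% trimmed mean of 100.01 on each array. The 126 zeros were set to 0.1, the smallest positive value, before log2, and no further scaling was applied. After 64 control probe sets were left out, the dimmest 40% of 22746 by mean log2 over the 5 grouped arrays were removed, which kept 13647. Linear models were fitted in limma 3.58.1 under R 4.3.3 (lmFit, then eBayes with trend), with Benjamini-Hochberg adjustment over all probe sets kept and a threshold of 0.05. Line 4 was tested in a fit of 3 groups (2 residual degrees of freedom) and both lines together in a fit of 2 groups (3 residual degrees of freedom). Nothing says whether pools were grown separately, so p-values measure only the spread between these samples. For each gene that spread was drawn in part from a variance trend over all probe sets kept. The SEs, intervals and p-values of single genes therefore rest on more than their own residual degrees of freedom. With no variance trend RALFL33 (limma adjusted p = 0.123) and RALFL34 (0.0761) did not pass in line 4, so their calls depend on it. The number of arrays limits the precision.

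Genes were named from the platform annotation (13513 probe sets of 1 gene, 503 of several) with symbols updated through the TAIR10.1 gene table, which matched 10 RALFL genes by gene ID and RALFL22 by symbol. No coordinates are given because the files name no build. Every RALFL probe set and every measured gene of the RALF list is named, and the 3 probe sets of closest profile for each measured RALFL gene with a standard deviation of at least 0.3. The members and lists were chosen with earlier results of these data known. The flower and seed marker lists (5 and 4 loci) had no probe set named. Alternatives were a pseudocount of 10, quantile normalization, no filter or one of 60%, no variance trend, leaving out arrays, placing the array with conflicting labels, and the title number as a block. Same-numbered line 4 and control arrays had deviations correlated at -0.0749 across probe sets.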

Additional observations from a re-analysis of the deposited data

Results flagged for a closer look

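For RALFL34 both line 4 arrays lay below both control arrays and the line 1 array lay above them, a pattern found at 9.2% of all probe sets. Line 4 minus line 1 was -0.62 on the log2 scale. With 1 array in line 1 this difference was not tested.

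On the array whose labels conflict, which enters no comparison, signals lay above both control arrays for 4 of the 11 RALFL genes. RALFL24 read 150.7 there, against 119.1 and 101.9 in the control, and RALFL27 read 52.6, against 30.3 and 26.3. RALFL22 read 267.3, against 240.4 and 259.7, and RALFL18 read 10.3, against 7.5 and 4.4. Below both control arrays were 3 RALFL genes, RALFL33 at 334.0, RALFL32 at 132.7 and RALFL25 at 1.4. RALFL18, RALFL25 and RALFL27 lay under the filter. Shares that include probe sets under the filter were not computed, so the counts over all 11 genes have none to be read against. Of the 5 genes kept by it, 2 lay above and 2 below, where 46% and 36.6% of all probe sets kept did on that array. No cause of these readings was tested.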

How the results depend on the processing

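The calls depend most on leaving out the array with conflicting labels. With it as control or as line 1, 0 RALFL genes passed in line 4 against the control, beside 0.645% and 1.34% of all probe sets, where 3 of 5 and 15.5% passed without it. Counting that array as line 1 changes no line 4 difference, since it enters only the spread and the filter. The filter then kept 6 RALFL genes. With no variance trend 1 gene passed in line 4, RALFL32, beside 8.18% of all probe sets. Leaving out 1 replicate gave 2 to 3 RALFL genes in line 4, beside 7.52% to 14.9% of all probe sets, and 0 in both lines together. For both lines together, 3 passed without the line 1 array and 3 with the lines as separate groups, beside 15.6% and 15.4% of all probe sets. The fit with separate groups gives the single line 1 array the weight of both line 4 arrays together. When the conflicting array was counted as line 1, 3 of 6 genes lay outside the control arrays on both arrays. On the line 1 array alone 5 of 5 did so. Lying outside on 2 arrays is a stricter condition, and the share of all probe sets that did so was not computed. With 1 control array left there is no control range, so no count of genes outside it was made. A limma fit that takes the single line 1 array to vary like the other groups gave 3 genes, beside 16.4% of all probe sets, and no replicate backs it. RALFL32 kept its line 4 call under every alternative run except the 2 placements of that array. Small differences changed sign without passing. RALFL22 in line 4 stood at -0.02 after quantile normalization and between -0.03 and 0.09 with 1 replicate left out. RALFL24 in both lines stood at -0.13 with the conflicting array as control, -0.18 without the line 1 array, -0.01 with the replicate block and -0.10 to 0.17 with 1 replicate left out. Of the RALF list, 1 of 19 genes passed with no filter, beside 5.52% of all probe sets. With the conflicting array as line 1, 1 of 10 passed, and with it as control 0 of 10, beside 1.34% and 0.645%. The stricter filter leaves out both called genes, and 0 of 5 passed with it, beside 21.1%. With 1 replicate left out, AT3G24480 ran from -0.32 to 0.29 and THE1 from -0.13 to 0.07. The title numbers are not shown to pair the arrays. With the replicate block 3 RALFL genes passed in line 4 and 2609 of all probe sets, against 2111 without it, and AT2G39360 passed as well (limma adjusted p = 0.029). Other causes were not tested. Under the filter, low signal limits 6 of the 11 genes.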
